A study of Mus musculus with 4 samples.

Results

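The genes of cholesterol synthesis and sterol regulation were compared between 2D and 3D cultures of AML12, an immortalised line of mouse hepatocytes. The set holds 28 genes listed by name for their place in the pathway, and all 28 are rows of the table of 31828 genes. They were ordered by role, with 8 genes of the mevalonate and isoprenoid steps, 3 genes from farnesyl diphosphate to lanosterol, 8 genes from lanosterol to cholesterol, 4 SREBP2 regulators, and 5 genes of sterol uptake, transport and esterification. Not every enzyme of the pathway is among them. Libraries of mRNA were made from 2 samples of 2D-cultured cells, plated in dishes, and 2 samples of 3D-cultured cells, embedded in Matrigel. Matrigel is a gel of basement membrane proteins, in which these cells form spheroids. Both cultures received the same medium with serum, insulin, transferrin, selenium and dexamethasone, and both were held at the G1/S boundary by hydroxyurea at 1 mM, which blocks DNA replication. Hydroxyurea was present for 24 h in 2D and 36 h in 3D, so that growth dimension and treatment time cannot be told apart. The labels do not say whether the libraries of a culture came from separate dishes, and the p-values measure only the spread between these libraries. In such bulk samples, fewer cells that express a gene and less RNA per cell cannot be told apart either.

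Cholesterol is made from acetyl-CoA. The early steps yield mevalonate and then the isoprenoid diphosphates, which also feed protein prenylation, ubiquinone and dolichol. Squalene synthase commits farnesyl diphosphate to sterols, squalene is oxidised and closed to lanosterol, and a series of demethylation, reduction and isomerisation steps turns lanosterol into cholesterol. The transcription factor SREBP2, encoded by Srebf2, activates most of these genes. Scap carries SREBP2 from the endoplasmic reticulum to the Golgi for cleavage when sterols are low, and the Insig proteins hold it back when sterols are high. In the liver this pathway supplies cholesterol for membranes, lipoproteins and bile acids.

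The identity of the cells was examined through cell type markers. Of 8 hepatocyte markers 6 could be tested, and all 6 were called higher in 3D, beside 23.4% of all genes tested. The summed level of the 8 markers was 84.8 to 86.9 TPM in 2D and 491 to 504 TPM in 3D. TPM is transcript abundance corrected for length and scaled to the library total. Apoc3, among the 6 tested, was at 0.626 and 0.227 TPM in 2D and 1.53 and 2.02 TPM in 3D. It reached the mean of 1 TPM needed for testing only through 3D, so that its call adds no support. Albumin (Alb) was listed at 0.819 and 1.20 TPM in 2D and at 12.7 and 10.0 TPM in 3D. Fgb and Serpina1a were listed at 0 in both 2D libraries and at no more than 0.0768 TPM in 3D. Of 6 biliary and epithelial markers 5 were tested, with 4 lower and 1 higher in 3D, beside 27.1% and 23.4% of all genes tested. The sum of the 6 markers was 11500 to 11800 TPM in 2D and 6580 to 6740 TPM in 3D. Most of it was Krt18 (mean 6207 TPM in 2D and 3297 TPM in 3D) and Krt8 (3220 and 1821 TPM). The marker called higher was Sox9, at 15.24 and 16.45 TPM in 2D and 24.24 and 25.35 TPM in 3D. Epcam was at or near 0 throughout. Fibroblast markers summed to 35.0 to 37.6 TPM in 2D and 18.7 to 19.7 TPM in 3D. Nearly all of that was Des. Leukocyte markers summed to 21.9 to 27.6 TPM in the 4 libraries, mostly Cd68, with Ptprc at no more than 0.296 TPM and Adgre1 at 0 in 3 libraries. Endothelial markers summed to no more than 1.47 TPM. The part of these shifts in the results was not tested.

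Transcripts of the synthesis enzymes moved in both directions in 3D-cultured cells, and their totals overlapped between the cultures. Of the 19 synthesis genes, 6 rose (31.6%), 7 fell (36.8%) and 6 did not pass the threshold, where 23.4% of all genes tested were called higher and 27.1% lower. The genes of squalene synthesis and epoxidation, Fdft1 and Sqle, rose, while the kinases of the mevalonate steps, Mvk and Pmvk, fell. Srebf2 and Insig1 rose together with Soat1, which esterifies cholesterol. The summed TPM of the 19 synthesis genes was 1262 and 1229 in 2D, against 1238 and 1231 in 3D. The mean ± SD was 1246 ± 23.7 for 2D and 1234 ± 4.82 for 3D (n = 2 each), and the libraries of the cultures overlapped. All tests used limma on log2(TPM + 1) across the 14116 genes with a mean of at least 1 TPM, and p-values were adjusted by Benjamini-Hochberg. With 2 libraries on each side, the smallest p of an exact permutation test is 0.333. Fold changes are given on the log2(TPM + 1) scale as 3D over 2D.

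Of the 28 genes, 27 reached a mean of 1 TPM and were tested. At an adjusted p under 0.05, 11 were higher and 7 lower in 3D, and 9 did not pass. This is 66.7% called in either direction, beside 50.5% of all genes tested. The share called higher was 40.7%, beside 23.4% of all genes, and the share called lower was 25.9%, beside 27.1%. Both libraries of one culture lay above both of the other for 23 of the 27 genes (85.2%), against 77.5% of all genes tested. The median level of the 27 genes was 43.6 TPM and that of all genes tested was 22.2 TPM. The changes were modest in size. The median absolute log2 fold change was 0.36 over the 27 genes and 0.31 over all genes tested. Only Soat1 of the 27 exceeded 1, where 8.55% of all genes tested did. The median signed change was 0.12 over the 27 genes, 0.04 over the 19 synthesis genes and -0.04 over all genes tested.

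**Figure D1:**
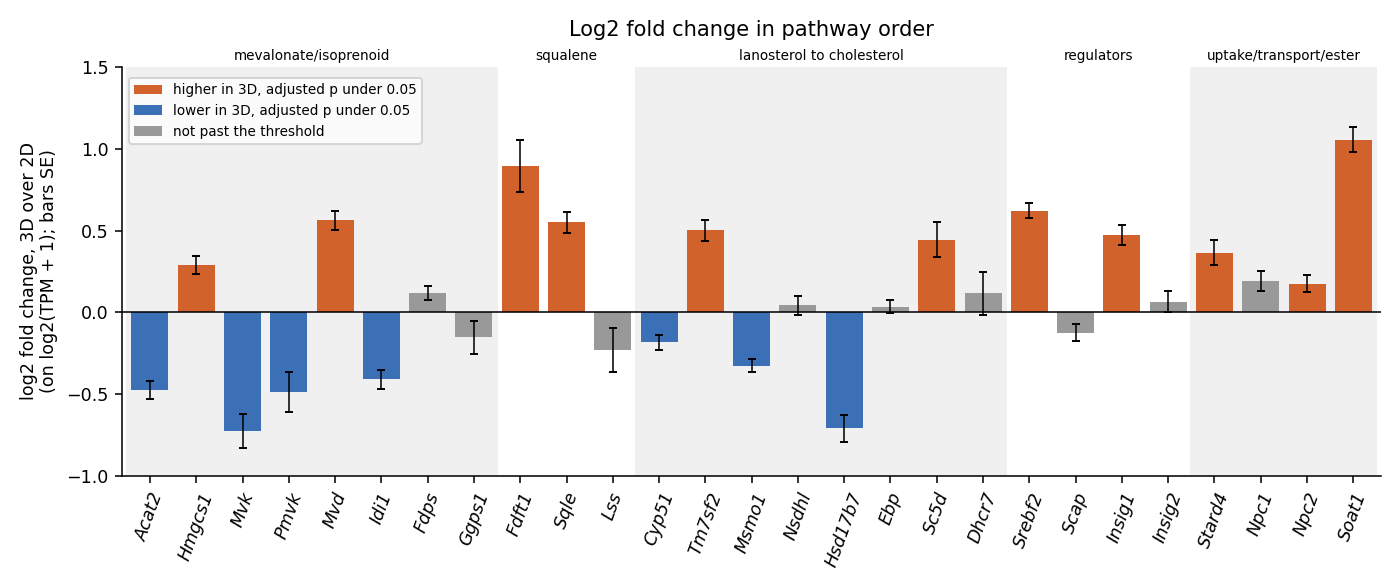
Log2 fold change of 3D over 2D on the log2(TPM + 1) scale for the 27 genes tested, in pathway order, with bars of 1 SE from limma. Genes higher in 3D (orange), lower in 3D (blue) and not past the threshold (grey) alternate along the synthesis steps, from -0.73 for Mvk to 0.89 for Fdft1, while the called regulators and transport genes all lie above 0.

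To show the promoter sequences that go with these changes, the windows of RefSeq (GRCm38.p6) from 250 bases before to 50 after the transcript start were searched on both strands. A window was found for 23 of the 28 genes, and Fdps, Fdft1, Sqle, Stard4 and Npc1 had none. The sterol regulatory element, which SREBP2 binds, was searched as TCACNCCAC. An exact match of these letters occurred in 1 of the 23 genes, Hmgcs1, and in 1.44% of all 27025 genes with a window. Apart from the shorter string that follows, no other form of the element was searched. The shorter TCACCCCA, added after the data were seen, occurred in Hmgcs1 and Srebf2 and in 1.77% of all genes. CCAAT, the box of NF-Y, occurred in 21 of the 23 genes (91.3%), against 41.1% of all genes and 43.1% of those tested for expression. GGGCGG, the box of Sp1, also occurred in 21 (91.3%), against 38.2% of all and 67.6% of tested genes. NF-Y and Sp1 are known to act with SREBP2 at sterol-responsive promoters. No match of one of TCACNCCAC, CCAAT and GGGCGG overlapped a match of another in the windows of these genes.

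The 250 bases before the start are shown for Hmgcs1, the one gene with a match of TCACNCCAC. They are also shown for the other called genes with a window that rose most (Soat1, Srebf2) and fell most (Mvk, Hsd17b7). These 4 were chosen after their values were seen. Capitals mark matches of the searched motifs on either strand. Starts are those of RefSeq and can differ from the listed gene spans. The listed span of Srebf2, for example, begins at 82147181, inside its window. All are 5′ to 3′ on the strand of the gene, with Hmgcs1 at chr13:119690101-119690350 (plus), Srebf2 at chr15:82147019-82147268 (plus), Soat1 at chr1:156474329-156474578 (minus), Mvk at chr5:114444019-114444268 (plus) and Hsd17b7 at chr1:169969206-169969455 (minus).
Hmgcs1: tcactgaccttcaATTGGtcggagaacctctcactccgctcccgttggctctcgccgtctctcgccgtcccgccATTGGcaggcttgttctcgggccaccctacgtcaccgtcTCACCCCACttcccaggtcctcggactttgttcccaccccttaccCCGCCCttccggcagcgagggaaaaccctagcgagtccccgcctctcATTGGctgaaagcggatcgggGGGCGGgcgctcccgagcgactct
Srebf2: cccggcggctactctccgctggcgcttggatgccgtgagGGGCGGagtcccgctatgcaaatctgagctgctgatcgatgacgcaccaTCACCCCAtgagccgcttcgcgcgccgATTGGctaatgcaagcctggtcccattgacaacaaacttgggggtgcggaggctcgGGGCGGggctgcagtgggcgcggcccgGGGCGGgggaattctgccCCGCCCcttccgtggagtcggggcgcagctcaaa
Soat1: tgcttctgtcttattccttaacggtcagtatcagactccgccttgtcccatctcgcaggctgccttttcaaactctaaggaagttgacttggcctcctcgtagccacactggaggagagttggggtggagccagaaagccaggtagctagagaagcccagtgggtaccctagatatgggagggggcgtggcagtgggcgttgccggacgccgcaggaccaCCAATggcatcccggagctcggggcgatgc
Mvk: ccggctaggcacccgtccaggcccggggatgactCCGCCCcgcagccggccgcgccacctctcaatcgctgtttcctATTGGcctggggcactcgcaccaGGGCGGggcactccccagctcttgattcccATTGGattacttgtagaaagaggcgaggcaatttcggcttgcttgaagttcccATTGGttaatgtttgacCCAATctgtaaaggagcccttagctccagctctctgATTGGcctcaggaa
Hsd17b7: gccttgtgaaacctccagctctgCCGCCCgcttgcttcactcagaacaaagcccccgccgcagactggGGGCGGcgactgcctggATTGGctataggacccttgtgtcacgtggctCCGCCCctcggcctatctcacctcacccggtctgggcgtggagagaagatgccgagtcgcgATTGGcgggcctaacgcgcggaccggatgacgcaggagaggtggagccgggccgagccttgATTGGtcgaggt

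The match of TCACNCCAC in Hmgcs1 begins 137 bases before the start and lies between NF-Y boxes at 176 and 45 bases. The match of the shorter TCACCCCA in Srebf2 begins 162 bases before the start, with an NF-Y box at 135 bases. The Mvk window, of a gene that fell, holds 5 NF-Y boxes and no match of TCACNCCAC or TCACCCCA. That of Hsd17b7, which also fell, holds 3 NF-Y boxes. Soat1, which rose, has 1 NF-Y box before its start. NF-Y boxes were present in 8 of 8 genes with a window that rose, in 6 of 7 that fell and in 6 of 7 that did not pass, with Mylip, not tested, as the remaining match. For Sp1 boxes the counts were the same, 8, 6 and 6. With each box in 21 of the 23 genes, their presence could not tell genes that rose from genes that fell. The sterol element letters matched only in Hmgcs1 and Srebf2, which both rose, too few genes to compare. A match of letters is not evidence of binding, and the lack of an exact match does not show that an element is absent.

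**Figure D2:**
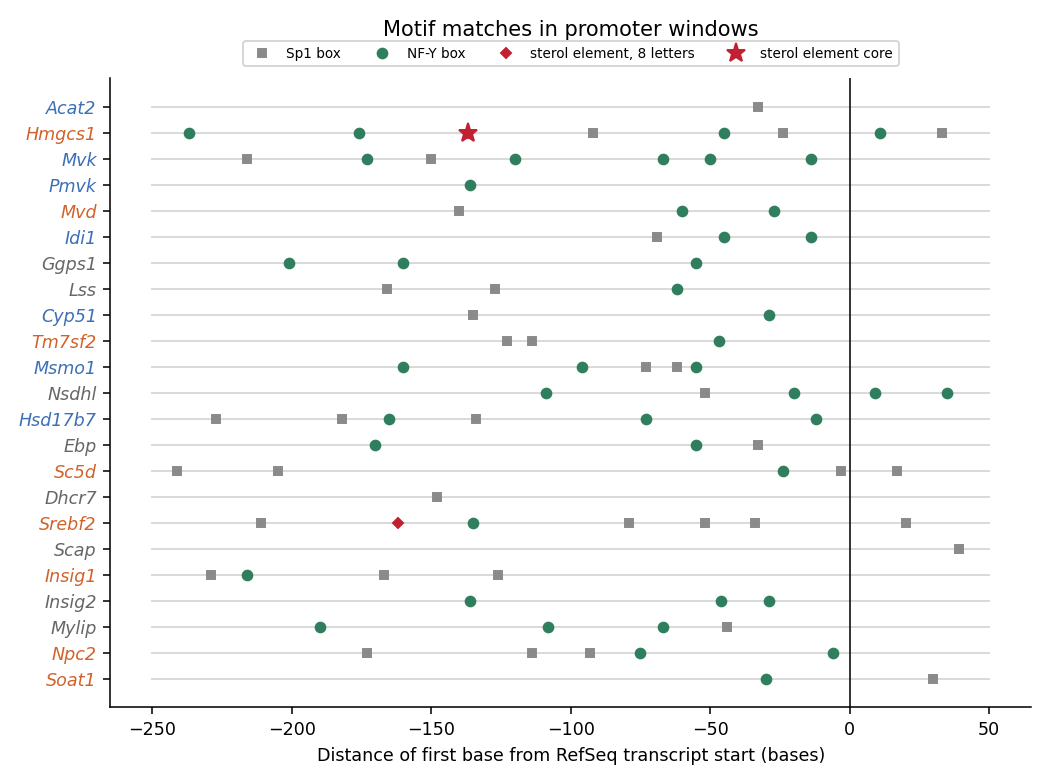
Positions of motif matches in the RefSeq promoter window of 23 genes, as distance in bases from the transcript start, with the first listed window where a gene has several. Names are orange for genes higher in 3D, blue for lower and grey for the others. NF-Y boxes (circles) and Sp1 boxes (squares) occur in genes of every colour. The searched sterol element letters match in Hmgcs1 (star) and, as the 8-letter form, in Srebf2 (diamond).

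At the entry to the pathway the enzymes moved apart. Acat2, the cytosolic thiolase that makes acetoacetyl-CoA, was at 64.1 and 68.3 TPM in 2D and 47.3 and 47.4 TPM in 3D. It fell by 0.47 (SE 0.05, limma adjusted p 0.00297). Its neighbour Acat3, a closely similar gene chosen after its values were seen, fell by 0.60 (limma adjusted p 0.00701), and the split of reads between these copies is uncertain. Hmgcs1, the cytosolic HMG-CoA synthase, was at 59.1 and 56.7 TPM in 2D and 69.2 and 72.7 TPM in 3D. It rose by 0.29 (SE 0.05, limma adjusted p 0.0116), though without 3D replicate 2 the adjusted p was 0.0695.

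Of the enzymes that turn mevalonate into isopentenyl diphosphate, the kinases fell and the decarboxylase rose. Mevalonate kinase, Mvk (chromosome 5, 114444269 to 114460591, GRCm38), was at 47.4 and 41.0 TPM in 2D and 24.7 and 27.9 TPM in 3D, the lowest fold change of the set at -0.73 (SE 0.10, limma adjusted p 0.00524). Phosphomevalonate kinase, Pmvk, was at 27.3 and 21.8 TPM in 2D and 16.5 and 17.7 TPM in 3D (log2 fold change -0.49, SE 0.12, limma adjusted p 0.0293). The libraries did not overlap for either kinase. The call of Pmvk was lost without 2D replicate 1 (limma adjusted p 0.0529), 3D replicate 1 (0.117) or 3D replicate 2 (0.0791). Mvd, the diphosphomevalonate decarboxylase, was at 21.6 and 20.6 TPM in 2D and 31.8 and 31.5 TPM in 3D. It rose by 0.56 (SE 0.06, limma adjusted p 0.00245), with replicates that lay close together in each culture. The Mvd to Mvk ratio within a library was 0.456 and 0.504 in 2D and 1.29 and 1.13 in 3D, so that the order of the pair was inverted.

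Idi1, the isomerase that interconverts the isoprenoid units, fell by 0.41 (SE 0.06, limma adjusted p 0.00571), from 44.8 and 44.5 TPM in 2D to 32.2 and 34.5 TPM in 3D. Fdps, which makes farnesyl diphosphate, was more abundant, at 128 and 124 TPM in 2D and 136 and 139 TPM in 3D. Its libraries did not overlap, but the log2 change, 0.12 (SE 0.04), did not pass (limma adjusted p 0.0726). Fdps passed after quantile normalization (limma adjusted p 0.046) and after rescaling without mitochondrial and the 20 highest genes (0.0436). Ggps1, which makes geranylgeranyl diphosphate for protein prenylation, was at 23.2 and 21.8 TPM in 2D and 21.9 and 18.4 TPM in 3D, with overlapping libraries (log2 fold change -0.15, limma adjusted p 0.267). Over these 8 early genes 2 rose and 4 fell, beside 23.4% of all genes tested called higher and 27.1% called lower. The summed TPM of the 8 genes was 407 ± 12.0 for 2D and 384 ± 6.80 for 3D (mean ± SD of 2 libraries).

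From farnesyl diphosphate to lanosterol the first 2 enzymes rose. Fdft1, the squalene synthase (chromosome 14, 63145150 to 63179578), was at 16.3 and 15.97 TPM in 2D and 36.1 and 26.2 TPM in 3D. The log2 change of 0.89 (SE 0.16, limma adjusted p 0.0103) was the highest of the synthesis genes, and its 3D libraries had the largest gap between replicates of the set, 0.45 on the log2 scale. Without 2D replicate 1 or 2D replicate 2 the adjusted p was 0.068 and 0.0714. Sqle, the squalene epoxidase, was at 75.8 and 69.8 TPM in 2D and 110 and 104 TPM in 3D, a rise of 0.55 (SE 0.06, limma adjusted p 0.00287). Lss, which closes the ring system of lanosterol, was at 32.2 and 42.2 TPM in 2D and 30.9 and 31.7 TPM in 3D, for a log2 change of -0.23 (SE 0.14, limma adjusted p 0.219). The libraries did not overlap, but those of 2D differed from each other by more than the cultures did, and without 2D replicate 1 its log2 fold change was -0.42 (limma adjusted p 0.0169). The summed TPM of the 3 genes was 126 ± 2.66 for 2D and 170 ± 10.8 for 3D (mean ± SD of 2 libraries), an increase of 34.4%.

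**Figure D3:**
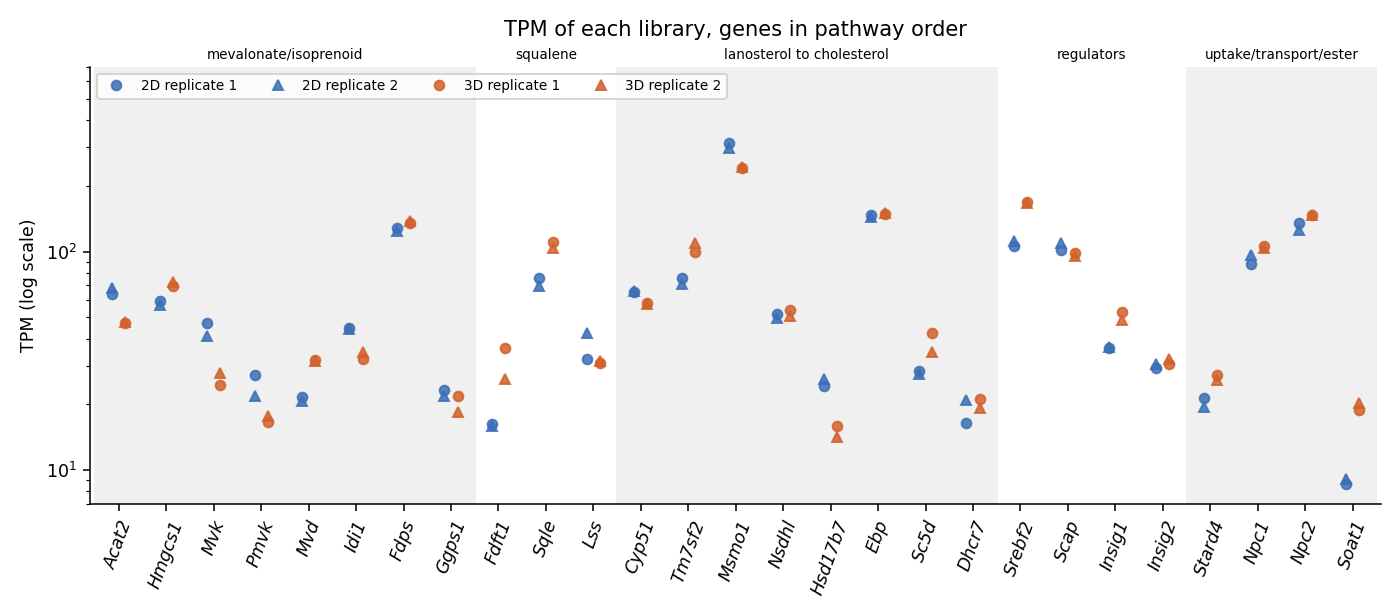
TPM of the 27 tested genes in each of the 4 libraries on a log axis, with genes in pathway order and shaded bands marking their roles. Msmo1 is the highest in every library, and Soat1 is the lowest in both 2D libraries and moves up to 18.9 and 20.3 TPM in 3D.

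After lanosterol, the demethylating enzymes fell or did not pass. Cyp51, the lanosterol demethylase, was at 65.6 and 65.7 TPM in 2D and 58.1 and 57.3 TPM in 3D, a small fall of 0.18 (SE 0.04, limma adjusted p 0.0265). That call was lost when any of the 4 libraries was left out, with adjusted p-values of 0.0675 and 0.0684 without 2D replicate 1 and 2D replicate 2, and 0.105 and 0.129 without 3D replicate 1 and 3D replicate 2. Msmo1, the methylsterol monooxygenase, was the most abundant of the synthesis genes. Its level of 313 and 297 TPM in 2D and 242 and 245 TPM in 3D made up 24.8% and 24.2% of the summed synthesis TPM in 2D and 19.5% and 19.9% in 3D. It fell by 0.32 (SE 0.04, limma adjusted p 0.0042). Nsdhl, the dehydrogenase that acts with Msmo1, was at 51.7 and 49.6 TPM in 2D and 53.8 and 50.6 TPM in 3D (log2 fold change 0.04, limma adjusted p 0.572), with overlapping libraries. Hsd17b7, the ketoreductase of the same demethylation (chromosome 1, 169949535 to 169969241), was at 24.3 and 26.2 TPM in 2D and 15.9 and 14.3 TPM in 3D. It fell by 0.71 (SE 0.085, limma adjusted p 0.00334).

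Of the reductases, isomerase and desaturase, 2 rose and none fell, beside 23.4% of all genes tested called higher and 27.1% called lower. Tm7sf2, a sterol reductase, was at 75.4 and 71.3 TPM in 2D and 99.6 and 109 TPM in 3D (log2 fold change 0.50, SE 0.06, limma adjusted p 0.00405). Its listed span overlaps Vps51 on the same strand, and the split of reads between them is uncertain. Vps51 itself differed by 0.18 on the log2 scale and did not pass (limma adjusted p 0.0825). Sc5d, the sterol desaturase, was at 28.4 and 27.4 TPM in 2D and 42.3 and 34.6 TPM in 3D, a rise of 0.44 (SE 0.11, limma adjusted p 0.026). The call was lost without 2D replicate 1 (0.0873), 2D replicate 2 (0.108) or 3D replicate 1 (0.0638), as limma adjusted p-values. Ebp, the sterol isomerase, stood at 148 and 144 TPM in 2D and 149 and 150 TPM in 3D (log2 fold change 0.04, SE 0.04, limma adjusted p 0.485). Dhcr7, the reductase that yields cholesterol, was at 16.5 and 20.9 TPM in 2D and 21.3 and 19.3 TPM in 3D (log2 fold change 0.12, SE 0.13, limma adjusted p 0.495). The libraries of Dhcr7 overlapped, and without 2D replicate 1 the log2 change was -0.05. The 8 genes summed to 712 ± 14.3 TPM for 2D and 681 ± 0.796 TPM for 3D (mean ± SD of 2 libraries).

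**Figure D4:**
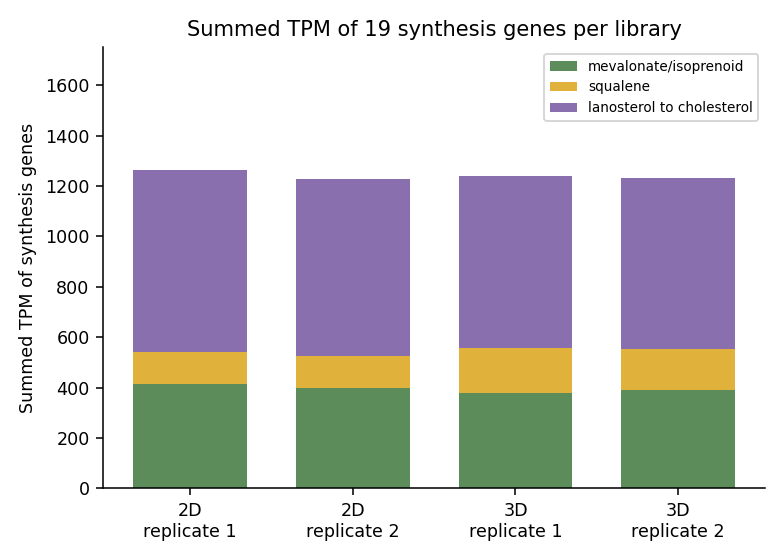
Summed TPM of the 19 synthesis genes in each library, stacked by the 3 stretches of the pathway, on an axis from 0. The totals lie between 1229 and 1262, while the squalene stretch is 124 and 128 in 2D and 177 and 162 in 3D.

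The order of the synthesis genes by level was largely kept. Across the 19 genes the Spearman rho of mean TPM in 2D against 3D was 0.884, as a description across genes of the same libraries. Within each library, however, several pairs of genes shifted against each other, which does not depend on how libraries were scaled. Apart from Mvd and Mvk, the Fdft1 to Idi1 ratio was 0.364 and 0.359 in 2D and 1.12 and 0.76 in 3D. The Sc5d to Hsd17b7 ratio was 1.17 and 1.05 in 2D and 2.66 and 2.43 in 3D. The Tm7sf2 to Msmo1 ratio was 0.241 and 0.240 in 2D and 0.412 and 0.446 in 3D. The pairs were chosen after the changes of their members were seen, so that their separation is no independent result.

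Among the regulators, Srebf2 and Insig1 rose and Scap and Insig2 did not pass. Srebf2 (chromosome 15, 82147181 to 82205379) was at 106 and 112 TPM in 2D and 169 and 167 TPM in 3D. It rose by 0.62 (SE 0.05, limma adjusted p 0.000979). The listed span of Srebf2 overlaps another gene on the same strand, at a mean of 6.24 TPM, and the split of reads between them is uncertain. Scap, the escort of SREBP2, was at 102 and 110 TPM in 2D and 98.6 and 95.4 TPM in 3D, for a log2 change of -0.12 (SE 0.05, limma adjusted p 0.125). The Srebf2 to Scap ratio within a library was 1.04 and 1.02 in 2D and 1.72 and 1.75 in 3D. The transcripts were thus about equal in 2D, and Srebf2 was the higher in 3D.

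Insig1, which retains Scap in the endoplasmic reticulum and is itself a known target of SREBP2, was at 36.2 and 36.4 TPM in 2D and 52.9 and 48.8 TPM in 3D. It rose by 0.47 (SE 0.06, limma adjusted p 0.00411). Its paralog Insig2 was at 29.4 and 30.7 TPM in 2D and 30.6 and 32.4 TPM in 3D, with overlapping libraries (log2 fold change 0.07, SE 0.06, limma adjusted p 0.423). The Insig1 to Insig2 ratio within a library was 1.23 and 1.19 in 2D and 1.73 and 1.51 in 3D. The median over the 4 regulators was 0.27 on the log2 scale.

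**Figure D5:**
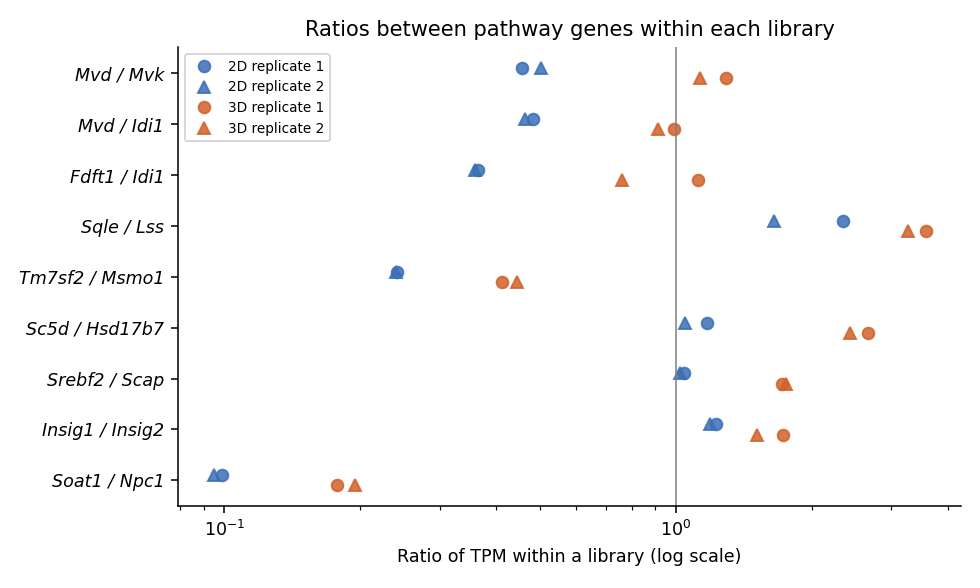
Ratios of TPM between 9 pairs of the genes within each library, on a log axis, with 2D libraries in blue and 3D libraries in orange. The 3D libraries lie to the right of the 2D libraries for each of these pairs, which were chosen after the changes of their members were seen. The Mvd to Mvk ratio lies below 1 in both 2D libraries and above 1 in both 3D libraries.

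Of the 5 genes of uptake, transport and esterification, 3 rose, 1 did not pass and 1 was too low to test, beside 23.4% of all genes tested called higher. Soat1, the acyltransferase that esterifies cholesterol for storage in lipid droplets (chromosome 1, 156424525 to 156474331), was at 8.68 and 9.14 TPM in 2D and 18.9 and 20.3 TPM in 3D. The log2 change of 1.06 (SE 0.08, limma adjusted p 0.000952) was the highest of all 27 genes. Soat2, the other cholesterol-esterifying enzyme, which is not one of the 28 and was chosen after its values were seen, was at 26.2 and 26.7 TPM in 2D and 29.7 and 25.8 TPM in 3D. Its libraries overlapped and it did not pass (log2 change 0.06, SE 0.08, limma adjusted p 0.56), and its level was above that of Soat1 in every library. Stard4, a cytosolic carrier of sterols between membranes, was at 21.4 and 19.4 TPM in 2D and 27.3 and 25.8 TPM in 3D (log2 fold change 0.36, SE 0.08, limma adjusted p 0.0175). Without 2D replicate 2, 3D replicate 1 or 3D replicate 2 its adjusted p was 0.0539, 0.0896 and 0.0551.

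Npc1 and Npc2, which together export cholesterol from lysosomes, had small differences close to the threshold. Npc1 was at 87.8 and 96.5 TPM in 2D and 106 and 104 TPM in 3D (log2 fold change 0.19, SE 0.06, limma adjusted p 0.0556), and without 2D replicate 2 it passed (0.26, limma adjusted p 0.0254), as it did under 3 other scalings. Npc2 was at 135 and 125 TPM in 2D and 146 and 148 TPM in 3D (log2 fold change 0.17, SE 0.05, limma adjusted p 0.0461). Without 2D replicate 2, 3D replicate 1 or 3D replicate 2 Npc2 did not pass (limma adjusted p 0.1, 0.153 and 0.175). Mylip, a ubiquitin ligase that targets lipoprotein receptors for degradation, was listed at 0 and 0.0196 TPM in 2D and at 0.0198 and 0.0304 TPM in 3D, and no fold change was taken. The summed TPM of the 5 genes was 252 ± 1.85 for 2D and 298 ± 0.900 for 3D (mean ± SD of 2 libraries).

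Further genes of sterol metabolism were counted from lists written with earlier results of these data known. Their counts stand beside 23.4% of all genes tested called higher and 27.1% called lower, and their medians beside -0.04 over all genes tested. Of 8 genes of SREBP processing and sterol-regulated degradation, 4 rose and 0 fell (23.4% and 27.1% of all genes), with a median log2 change of 0.17. Srebf1, which encodes the related factor SREBP1, rose by 0.61, from 52.0 ± 0.266 to 79.7 ± 0.493 TPM (SD, n = 2 each, limma adjusted p 0.00092). Of 13 genes that use isoprenoids, 2 rose and 4 fell, with a median of -0.13. Beside 23.4% and 27.1% of all genes, that count is near the background and is no result about the list. Fnta, a subunit of the prenyltransferases, fell by 0.30 (limma adjusted p 0.0231), and Coq2, of ubiquinone synthesis, fell by 0.35 (limma adjusted p 0.00477). Without any one of the 4 libraries, 2 of the 8 and 1 of the 13 genes were called higher. Of the 13, the genes called lower were 2 without 3D replicate 1 and 1 without 3D replicate 2. Fnta lost its call without 2D replicate 1 (limma adjusted p 0.0502), 3D replicate 1 (0.107) or 3D replicate 2 (0.0623).

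Of 12 genes of sterol transfer and ester hydrolysis, 7 rose and 1 fell, against 23.4% and 27.1% of all genes tested, with a median log2 change of 0.32. Osbp, a sterol transfer protein, rose by 0.22 (limma adjusted p 0.0153), and Tmem97, a sterol-responsive membrane protein, fell by 0.38 (limma adjusted p 0.0044). Osbp lost its call without 3D replicate 1 (limma adjusted p 0.0934) or 3D replicate 2 (0.0614), and without 3D replicate 1 the genes called higher were 4 of 12. Without 2D replicate 1 the genes called lower were 2. Of 7 genes of LXR signalling and sterol efflux, 3 were tested and 2 rose (23.4% of all genes), while 4 stayed under 1 TPM in every library. These 2 were the oxysterol receptors Nr1h3, with a log2 change of 0.88 (limma adjusted p 0.000881), and Nr1h2, with 0.34 (limma adjusted p 0.00444). Of 6 genes of oxysterol and bile acid synthesis in the table, 2 were tested and both rose (again beside 23.4% of all genes), Cyp27a1 by 0.75 (limma adjusted p 0.00244) and Cyp39a1 by 0.49 (limma adjusted p 0.00458).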

How the data were processed

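RNA was measured in 2 libraries of 2D- and 2 of 3D-cultured AML12 cells, grouped by their labels. Reads were trimmed by the authors with cutadapt 1.8.3 and Trimmomatic 0.36, mapped to GRCm38 with HISAT2 2.0.5 with strand, and quantified with StringTie 1.3.4. The authors deposited TPM per library, one column each. Their own fold change and p-value columns, from DESeq2, were not used. TPM keeps no sequencing depth, so depth is unknown and no counting interval was computed. TPM are relative to the library total, and a 0 can be a failed estimate.

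The 14116 genes averaging 1 TPM or more were fitted on log2(TPM + 1) in limma 3.58.1 (R 4.3.3, trend and robust). Culture was the sole factor, and tests were two-sided and adjusted over those genes. The script was tested on simulated data with 200 of 14116 genes changed, far fewer than were called here. It recovered 69% of 2-fold and 97% of 4-fold changes, and 4.6% of its calls were false. Smaller changes were not simulated, so that a gene that did not pass is not shown to be unchanged. Summaries, promoter searches and plots used Python 3.11.15, pandas 2.3.3, scipy 1.17.1 and matplotlib 3.10.9. The members and lists were chosen with earlier results of these data known. All 28 members were named. Of each further list the 2 genes with the highest mean TPM could be named, and any other gene was chosen after its values were seen. One listed gene is not reported here by name. Sequences are from RefSeq. The alternatives tried were other pseudocounts, filters, scalings, a replicate block, a constant prior variance, a fold threshold and each library left out.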

Additional observations from a re-analysis of the deposited data

How the results depend on the processing

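Of the 18 genes of the set called, 11 kept their call under all 13 alternatives of the fit, 6 of them higher in 3D (Mvd, Sqle, Tm7sf2, Srebf2, Insig1, Soat1) and 5 lower (Acat2, Mvk, Idi1, Msmo1, Hsd17b7). The other 7 lost it under some. Of 351 values for the 27 genes, 349 kept their direction, 28 lost the threshold and 7 newly passed it. The exceptions were Dhcr7 without 2D replicate 1 (-0.0473) and Nsdhl without 3D replicate 1 (-0.0009), within ranges of -0.0473 to 0.2819 and -0.0009 to 0.0858 over the libraries left out. Scalings moved the median of all genes by no more than 0.0234. The same-numbered libraries did not deviate together (correlation of deviations -0.0549), and their numbers were not taken as pairs. With the replicate block, 10 genes of the set were higher and 6 lower, of 6248 genes called, and Cyp51 (adjusted p 0.0734) and Npc2 (0.0781) lost their calls. With an absolute log2 fold change over 1 as well, 1 was higher and 0 lower. Of all genes tested, 8.55% exceeded that change, whether called or not.

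With no filter, 9 were higher and 5 lower, of 5977 genes called among 31828 fitted, against 7122 of 14116 with the filter. Pmvk, Cyp51, Sc5d and Npc2 lost their calls (limma adjusted p 0.0687, 0.0643, 0.0627 and 0.101). The median of the transport genes was 0.19 with no filter, where Mylip enters, and 0.25 with a pseudocount of 5, against 0.28, and the cause of the latter was not tested. The log2 ratio of summed synthesis TPM was -0.0131, and 0.0134 when rescaled without mitochondrial genes and the 20 highest. Leaving out each library in turn, which leaves a lone library assumed to vary like the others, gave ratios of -0.0324 to 0.0065, medians of -0.0473 to 0.0294 for synthesis (below 0 without 2D replicate 1 and 3D replicate 1), 0.25 to 0.29 for regulators and 0.25 to 0.33 for transport, 8 to 9 genes of the set higher and 5 to 6 lower, and 4720 to 5954 genes called in all. Tests on counts were not run, since the values are TPM.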
